A study of Mus musculus with 6 samples.

Results

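The 10 genes described here encode surface proteins that were used to sort common myeloid progenitors from mouse fetal liver. They are Kit, Cd34, Fcgr3, Fcgr2b, Ly6a, Ptprc, Cd3e, Cd4, Cd5 and Ly6g. They were taken by name from the list of gate markers, with earlier results of these data known. They make up 10 of the 24815 gene identifiers measured by RNA sequencing, and 8 of the 10 passed the filter on low counts. Wild-type C57BL/6 embryos at E13.5 (embryonic day) gave 3 libraries, named A, F and L. Embryos of the same strain and age carrying the genotype -77-/- gave the other 3, named C, D and Q. This genotype lacks both copies of an enhancer, a distal regulatory element, that serves Gata2, a transcription factor gene, and both groups went through the same gate. The gate kept cells that stained for CD34 and c-Kit, weakly for Fc receptor and not for Sca-1. It also left out cells bearing markers of T cells (CD3, CD4, CD5, CD8), B cells (B220), granulocytes (Gr-1), erythroid cells (TER-119) or the proteins CD41 and CD48. Whether the libraries came from separate embryos is not given in the labels, so the p-values below measure only the spread between these libraries.

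Common myeloid progenitors sit between the stem cell compartment and the separate erythroid, megakaryocytic, granulocytic and monocytic lines. They are recognised by a combination of surface proteins, since no single marker defines them. c-Kit, the product of Kit, is the receptor tyrosine kinase for stem cell factor and is carried by most early progenitors. CD34 is a heavily glycosylated sialomucin. Fc receptors for IgG, encoded by Fcgr3 (CD16) and Fcgr2b (CD32), are scarce on megakaryocyte-erythroid progenitors and abundant on granulocyte-monocyte progenitors, so a low signal separates the common progenitor from both. Sca-1 (Ly6a) is a GPI-anchored protein of stem cells. The remaining proteins mark mature lineages: B220 is a form of CD45 (Ptprc) found on B cells, CD3, CD4 and CD5 mark T cells, and the Gr-1 antibody binds Ly6G of granulocytes and also Ly6C. Antibodies in the gate read protein at the surface, and the libraries read RNA from the cells that passed it. In bulk RNA, fewer cells of a type and less RNA per cell cannot be told apart.

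The libraries held between 14473913 and 30596279 expected counts, the read numbers that RSEM assigns to genes. Mutant C stood apart from the other 5 libraries: its counts fell on genes with a mean length of 1781 bases, against 2834 to 3124 bases in the others. For this reason the changes of the tested gate genes are given with and without mutant C, and also after removing the trend of counts with gene length in every library. Gata2, the gene whose enhancer was deleted, averaged 66.6 ± 10.9 CPM (counts relative to the scaled size of each library, SD, n = 3) in wild type against 14.4 ± 4.80 CPM in the mutant. By edgeR's quasi-likelihood test the adjusted p was 0.068, or 0.0019 once mutant C was left out. Of 10 progenitor genes, Mpo (myeloperoxidase) was at 471 to 2923 TPM across the 6 libraries. Spi1 (the factor PU.1) was at 131 to 293 TPM. The 10 summed to 2467 to 3874 TPM in wild type and 726 to 2743 TPM in the mutant. By edgeR 0 of them had an adjusted p under 0.05 with all libraries (0.155% of all genes). Without mutant C 1 was lower at that threshold (0.84% of all genes). DESeq2 and limma-voom without mutant C each gave Myb as lower (1.33% and 0.88% of all genes).

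Transcript levels followed the positive and negative sides of the gate, with exceptions among the negative markers. TPM, an abundance corrected for gene length within each library, allows levels to be compared between genes. Averaged over the 6 libraries, Cd34 came first at 607 TPM, followed by Kit at 96.3, Ptprc at 83.9, Fcgr3 at 39.1 and Fcgr2b at 14.5 TPM. Much lower were Cd4 at 2.36, Ly6a at 2.05, Ly6g at 0.687 and Cd5 at 0.493 TPM, and Cd3e was listed at 0 in every library. Cd34 exceeded Kit, Fcgr3 exceeded Fcgr2b and Fcgr2b exceeded Cd4 in each of the 6 libraries. Kit was above Ptprc in 5 libraries and below it in mutant C. Ptprc in turn was above Fcgr3 in 5 libraries and below it in mutant C, with 20.97 against 37.7 TPM. The ranges of Kit and Ptprc overlapped with or without mutant C, while those of Ptprc and Fcgr3 overlapped only through mutant C. Cd4 and Ly6a also overlapped in range, as did Ly6a with Ly6g and Ly6g with Cd5. Within libraries, the order of Cd4 and Ly6a varied, as did that of Ly6g and Cd5. Ly6a exceeded Ly6g in each of the 6 libraries, though Ly6g had at most 8.65 expected counts.

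**Figure D1:**
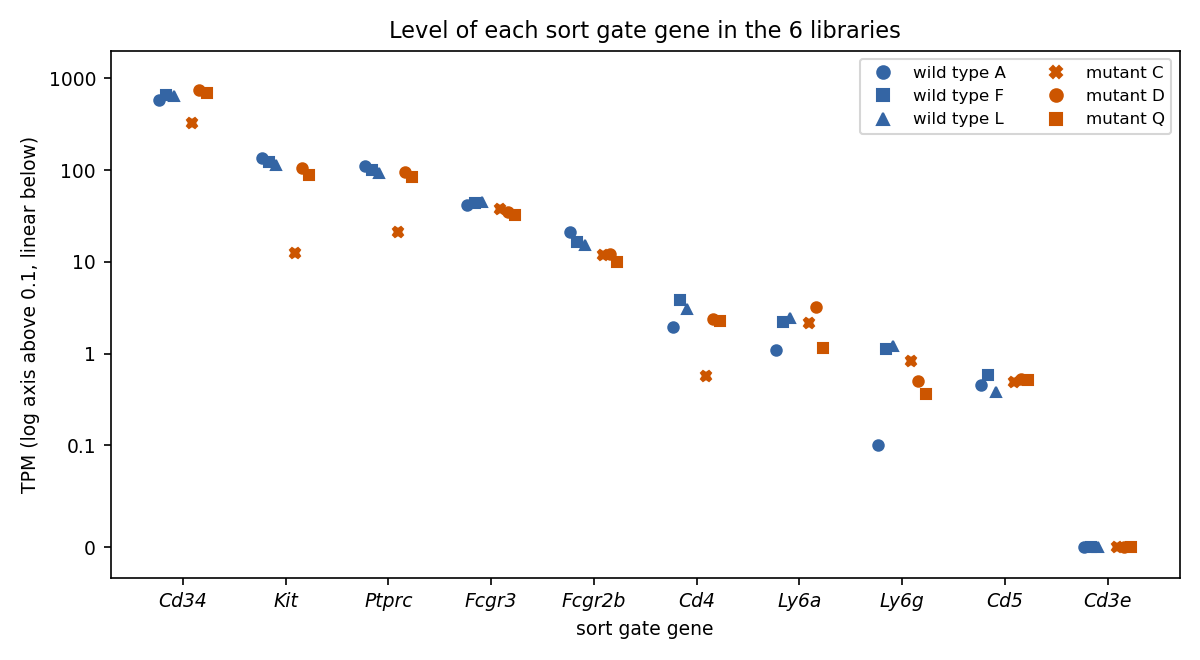
Level of each of the 10 gate genes in TPM (vertical axis, logarithmic above 0.1 and linear below) in the 3 wild-type libraries (blue) and the 3 mutant libraries (orange), 1 point per library, ordered by the mean over all libraries. Cd34 lies between 323 and 752 TPM, Cd3e lies at 0 throughout, and mutant C (crosses) is low for Kit and Ptprc.

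Kit, the first of the positive markers, was lower in all 3 mutants than in all 3 wild-type libraries. The gene (ENSMUSG00000005672) lies on chromosome 5 of mm10 from 75574916 to 75656722 on the plus strand. In CPM with TMM scaling it stood at 330, 337 and 317 in wild-type A, F and L and at 102, 292 and 270 in mutants C, D and Q. Mutant C was far below the other mutants, and mutants D and Q lay closer to wild type than to mutant C. The means were 328 ± 10.1 CPM (wild type) and 221 ± 104 CPM (mutant; SD, n = 3 each), and the spread in the mutant came mostly from mutant C. The fitted log2 change was -0.57 (SE 0.39, 95% interval -1.51 to 0.37), with adjusted p = 0.579 by edgeR's quasi-likelihood test. Without mutant C it was -0.23 (SE 0.079, interval -0.42 to -0.05), which is 1.17-fold lower, with unadjusted p = 0.021 and adjusted p = 0.371 by edgeR. Kit is the longest of the 10 genes, at about 5224 bases, and the length trend alone placed genes of its length at -0.86 on the log2 scale in mutant C. Once that trend was removed, Kit stood at 283, 296 and 287 CPM in wild type and at 184, 258 and 254 CPM in mutants C, D and Q, so the groups still did not overlap, which held for 10.9% of all tested genes in this direction. The corresponding fit gave a log2 change of -0.31 (interval -0.65 to 0.03, edgeR adjusted p = 0.530).

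Cd34 was the only other tested gate gene whose groups did not overlap in CPM, and its direction was opposite to that of Kit. The gene (ENSMUSG00000016494) lies on chromosome 1 of mm10 from 194938819 to 194961279 on the plus strand. Its level was 685, 862 and 861 CPM in wild-type A, F and L and 1254, 998 and 1024 CPM in mutants C, D and Q. Every mutant value was above every wild-type value, and wild-type A was the lowest of the 6. The means were 803 ± 102 CPM (wild type) and 1092 ± 141 CPM (mutant; SD, n = 3 each), a log2 change of 0.44 (SE 0.22, 95% interval -0.07 to 0.96, edgeR adjusted p = 0.578). Leaving out mutant C gave 0.33 (interval 0.07 to 0.58), with unadjusted p = 0.021 and adjusted p = 0.371 by edgeR. Cd34 is about 2534 bases long, where the length trend in mutant C was near zero, and removing the trend left the groups apart (as for 10.8% of all tested genes in this direction) and the change at 0.45 (interval 0.10 to 0.79, edgeR unadjusted p = 0.020, adjusted p = 0.502). On the TPM scale the picture in mutant C differed. Cd34 was at 585, 654 and 638 TPM in wild type, at 323 TPM in mutant C and at 752 and 687 TPM in mutants D and Q, so the library with the highest CPM had the lowest TPM. The change on the log2(TPM + 1) scale was accordingly -0.18, on a scale that shifted the median of all tested genes to -0.50, against -0.02 in CPM.

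The Fc receptor genes Fcgr3 and Fcgr2b, which encode the activating CD16 and the inhibitory CD32, lie on the minus strand of chromosome 1 of mm10. Fcgr3 (ENSMUSG00000059498) spans 171051174 to 171064935 and Fcgr2b (ENSMUSG00000026656) spans 170958617 to 170976547. A common staining antibody against mouse CD16/CD32 binds both proteins, and their transcripts share sequence as well. Of the 50-base words in the Fcgr3 transcripts 10.2% also occur in another gene, Fcgr2b, and 6.72% of those in Fcgr2b occur in other genes, mainly Fcgr3, so RSEM had to divide some reads between them and their separate values are uncertain. The longest stretch that both transcripts carry is shown because it marks where reads could not be told apart. It is 129 coding bases long, crosses an exon junction in both genes, and is given from the GENCODE M21 transcripts on mm10 in the sense direction (minus strand, between chr1:171054167-171057792 in Fcgr3 and chr1:170966674-170968081 in Fcgr2b).
Fcgr3: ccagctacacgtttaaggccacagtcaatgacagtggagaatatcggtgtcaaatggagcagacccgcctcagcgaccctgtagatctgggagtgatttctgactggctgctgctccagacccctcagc
Fcgr2b: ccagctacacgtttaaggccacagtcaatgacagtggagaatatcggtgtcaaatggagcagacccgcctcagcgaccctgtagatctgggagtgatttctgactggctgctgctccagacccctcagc

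Both receptor genes were lower in mutants D and Q than in every wild-type library, and both were highest in mutant C when measured in CPM. The distance was small for Fcgr3, where wild-type A was close to mutant Q. Fcgr3 stood at 25.2, 30.1 and 31.8 CPM in wild-type A, F and L and at 77.1, 24.3 and 25.1 CPM in mutants C, D and Q. Fcgr2b stood at 15.1, 13.4 and 12.6 CPM in wild type and at 26.8, 9.70 and 8.99 CPM in mutants C, D and Q. With all libraries the groups overlapped for both genes, and the log2 changes were 0.53 for Fcgr3 (95% interval -0.61 to 1.67, edgeR adjusted p = 0.604) and 0.12 for Fcgr2b (interval -0.94 to 1.18, edgeR adjusted p = 0.878). Leaving out mutant C turned both directions. Fcgr2b was then 1.48-fold lower, a log2 change of -0.57 (interval -0.88 to -0.25) with unadjusted p = 0.0036 and adjusted p = 0.173 by edgeR, and Fcgr3 was at -0.23 (interval -0.48 to 0.01, edgeR adjusted p = 0.505). The genes are short, at about 1345 and 1544 bases, and the length trend in mutant C was 0.82 and 0.64 on the log2 scale at those lengths. With the trend removed, Fcgr3 stood at 43.7 CPM and Fcgr2b at 17.1 CPM in mutant C, and their changes over all libraries were -0.02 and -0.31. TPM divides by the length of each gene, which differed little between libraries, so it does not remove the length trend of mutant C. In TPM Fcgr3 was at 41.4 to 45.0 in wild type and 32.2 to 37.7 in the mutant, and Fcgr2b at 15.3 to 21.1 and 9.94 to 12.3. Neither gene's groups overlapped on that scale. Mutants were wholly below wild type in TPM for 24% of all tested genes and for 3 of the 8 tested gate genes (Kit, Fcgr3 and Fcgr2b), a share read beside the shifted median of that scale.

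Ly6a, which encodes the Sca-1 that the gate left out, was near the limit of detection. The gene (ENSMUSG00000075602) lies on chromosome 15 of mm10 from 74994877 to 74998031 on the minus strand. It had 11.0, 13.0 and 19.99 expected counts in wild-type A, F and L and 27.5, 29.9 and 19.3 in mutants C, D and Q, corresponding to 0.437, 0.820 and 1.18 CPM and to 3.08, 1.43 and 0.589 CPM. The groups overlapped, with mutant Q inside the wild-type range. The log2 change of 0.98 had a 95% interval from -0.66 to 2.62 (edgeR adjusted p = 0.580), or 0.30 once mutant C was left out (interval -0.99 to 1.60). With the length trend removed it was 0.27 (interval -0.88 to 1.42). Each interval spans changes in both directions, so no difference was detectable at this depth. Words shared with other Ly6 genes made up 19.0% of its transcripts, so part of these few reads may belong to relatives such as Ly6c1 and Ly6i.

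Ptprc, the gene for the pan-leukocyte phosphatase CD45, was abundant although its B220 form was a negative marker. Blood cells in general carry CD45, and B220 is the form that includes the segment encoded by the alternatively spliced exons 4, 5 and 6. The gene (ENSMUSG00000026395) lies on chromosome 1 of mm10 from 138062861 to 138175708 on the minus strand. Ptprc was at 244, 250 and 235 CPM in wild-type A, F and L and at 154, 240 and 237 CPM in mutants C, D and Q. Mutants D and Q lay within the wild-type range and mutant C was the lowest. The log2 change was -0.21 (95% interval -0.73 to 0.31, edgeR adjusted p = 0.623). Leaving out mutant C gave -0.04 (interval -0.21 to 0.14, edgeR adjusted p = 0.880), the narrowest interval of the 8 tested genes. At about 4760 bases the gene is long, and with the length trend removed mutant C stood at 262 CPM against 213 to 224 CPM in the other libraries, a log2 change of 0.11 over all libraries.

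The exons that distinguish B220 are shown because a total for Ptprc does not separate the forms of CD45. They are given from the longest of the 3 Ptprc transcripts listed in the files, in the sense direction (minus strand of mm10), with the sequence of GENCODE M21. Exon 4 covers chr1:138122456-138122584, exon 5 covers chr1:138120020-138120166 and exon 6 covers chr1:138117754-138117894.
exon 4: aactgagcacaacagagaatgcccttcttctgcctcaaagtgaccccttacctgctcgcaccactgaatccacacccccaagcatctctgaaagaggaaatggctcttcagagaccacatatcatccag
exon 5: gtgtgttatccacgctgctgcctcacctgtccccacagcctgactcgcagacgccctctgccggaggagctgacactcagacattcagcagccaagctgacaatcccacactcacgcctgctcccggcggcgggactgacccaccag
exon 6: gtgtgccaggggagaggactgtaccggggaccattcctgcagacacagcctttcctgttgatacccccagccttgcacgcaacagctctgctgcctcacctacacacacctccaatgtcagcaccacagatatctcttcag

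These exons are 129, 147 and 141 bases long. The 3 transcripts are 4611, 4702 and 5074 bases long in GENCODE M21, and only the longest carries all of these exons. The deposited length of a gene is the mean over its transcripts weighted by their abundance. For Ptprc it was 4756 to 4785 bases in wild type and 4748 to 4755 bases in the mutant, between the shortest and the longest. This difference in length was not tested. If the authors used the same transcript lengths, the longest form made up between 22.4% and 37.6% of Ptprc transcripts in wild-type A, between 14.5% and 33.2% in wild-type F and L, and between 12.3% and 31.1% in the mutants. These bounds overlapped between all libraries. Their width comes from the unknown mix of the shorter forms, so the overlap does not decide whether the share differed. Of 13396 genes with a single listed transcript, 66.2% had the M21 length in the files, so the condition was not met by every gene.

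The T cell and granulocyte markers of the gate were scarce. Cd3e (ENSMUSG00000032093, chromosome 9 of mm10, 44998740 to 45009627, minus strand), a signalling chain of the T cell receptor complex, had 0 counts in all 6 libraries. A count of 0 allows up to 0.0259 CPM over the 115902348 counts of all libraries, which covers counting error only. Cd5 (ENSMUSG00000024669, chromosome 19, 10717116 to 10739002, minus strand), a modulator of T cell receptor signalling, had 7 to 20 expected counts per library. Its CPM was 0.437, 0.631 and 0.414 in wild type and 1.54, 0.574 and 0.620 in mutants C, D and Q, with mutants D and Q overlapping wild type (log2 change 0.77, 95% interval -0.41 to 1.95, edgeR adjusted p = 0.578). The change was 0.28 (interval -0.67 to 1.23) without mutant C and 0.63 (interval -0.38 to 1.64) with the length trend removed. Ly6g (ENSMUSG00000022582, chromosome 15, 75155240 to 75159126, plus strand), the granulocyte antigen bound by the Gr-1 antibody, had 1.03 to 8.65 expected counts per library and did not pass the filter of the edgeR fit. DESeq2, run without that filter, gave it an adjusted p of 0.795.

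Cd4 was the most abundant of the T cell genes in the gate. The gene (ENSMUSG00000023274) encodes the co-receptor of helper T cells and lies on chromosome 6 of mm10 from 124864692 to 124888221 on the minus strand. It had 71.2, 100 and 86.2 expected counts in wild-type A, F and L and 25.0, 82.0 and 132.0 in mutants C, D and Q. In CPM these were 2.82, 6.31 and 5.09 and then 2.75, 3.92 and 4.09, and the groups overlapped. The log2 change was -0.38 (95% interval -1.21 to 0.46, edgeR adjusted p = 0.605). Without mutant C it was -0.23 (interval -0.99 to 0.53), and with the length trend removed -0.28 (interval -1.03 to 0.48). Cd4 exceeded Cd5 in TPM in each of the 6 libraries, while Cd3e remained at 0. Other T cell genes from a list of 16 were also low: Cd2 was at 0 in every library, Cd3d reached at most 0.40 TPM and Cd3g at most 0.24 TPM. The most abundant of that list were Lat, Il7r and Cd28, adaptor, cytokine receptor and co-stimulatory genes, at 5.75 to 12.9, 1.25 to 6.45 and 0.98 to 6.71 TPM.

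**Figure D2:**
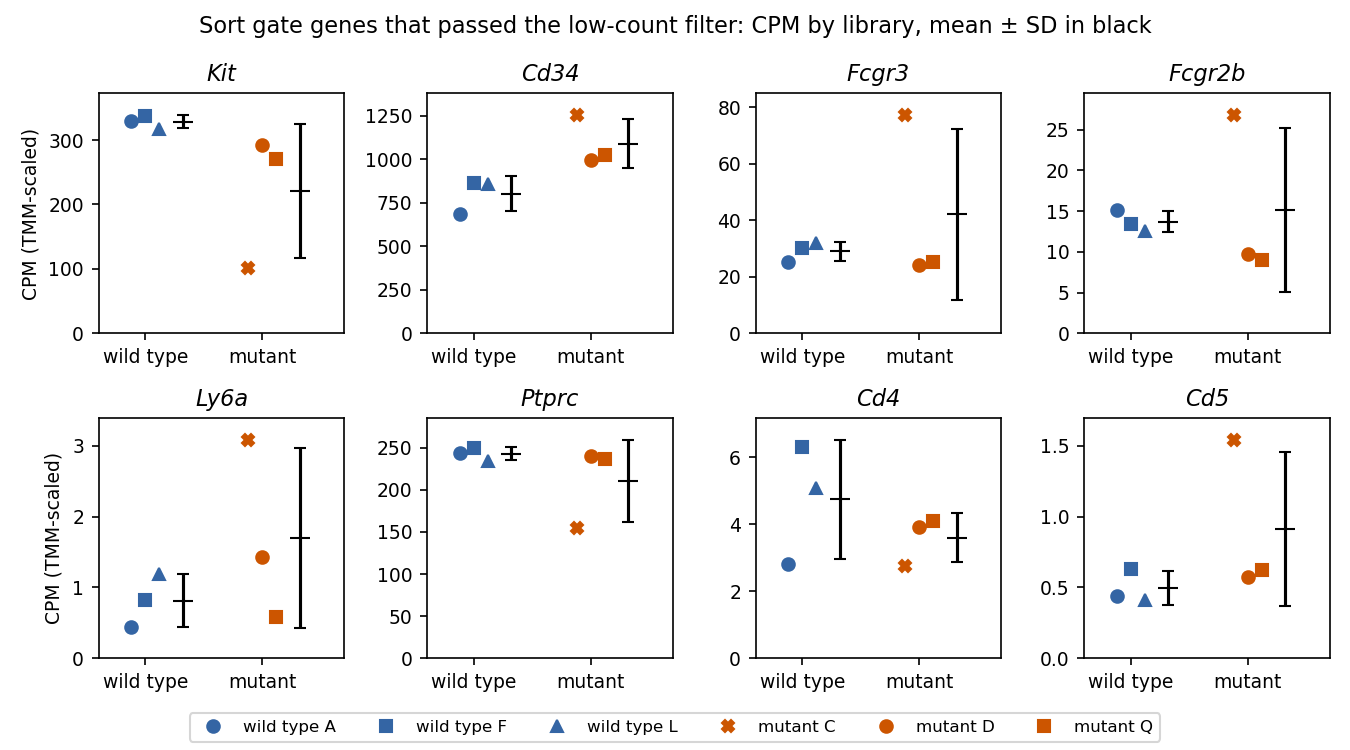
CPM of the 8 gate genes that passed the filter, 1 panel per gene with its own linear axis from 0, 1 point per library (wild type blue, mutant orange), with the mean and SD (n = 3) in black. Kit is lower in every mutant (102 to 292 against 317 to 337) and Cd34 is higher in every mutant (998 to 1254 against 685 to 862), and the other 6 genes overlap.

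No gate gene passed the test. Of the 8 tested, 0 had an adjusted p under 0.05 by edgeR's quasi-likelihood test with all libraries, where 0.155% of all 12222 tested genes did, and 0 had an unadjusted p under 0.05, where 4.8% of all genes did. DESeq2, which fitted 9 gate genes including Ly6g, and limma-voom also called 0, against backgrounds of 0.673% and 0.262%. The DESeq2 shares are over all genes it fitted, 18426 with all libraries and 18292 without mutant C. Only 16980 and 14030 of these had an adjusted p, so shares over those genes would be higher. At an unadjusted p under 0.05 DESeq2 gave 1 gate gene (Cd34), where 7.19% of all genes passed, and limma-voom gave 0, where 4.39% passed. The median log2 change of the 8 was 0.28, with 5 above and 3 below zero, against a median of -0.02 over all tested genes. In CPM, 1 of the 8 (Kit) was lower in every mutant, where 11.4% of all tested genes were, and 1 (Cd34) was higher in every mutant, where 10.6% were. These shares are close to the background.

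Without mutant C, edgeR again called 0 of the 8, beside 0.84% of all genes tested. Kit, Cd34 and Fcgr2b then had an unadjusted p under 0.05, which is 3 of 8 genes where 10.4% of all genes did. The median log2 change of the 8 was -0.13. In CPM, Kit, Fcgr3 and Fcgr2b were lower in both remaining mutants than in every wild-type library, against 14.6% of all genes, and Cd34 was higher, against 14.5%. With the length trend removed and all libraries kept, 0 of the 8 were called, beside 0.442% of all genes, and 1 (Cd34) had an unadjusted p under 0.05, where 8.56% of all genes did. With so few genes, and each gate gene chosen with earlier results of these data known, these counts are a description.

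**Figure D3:**
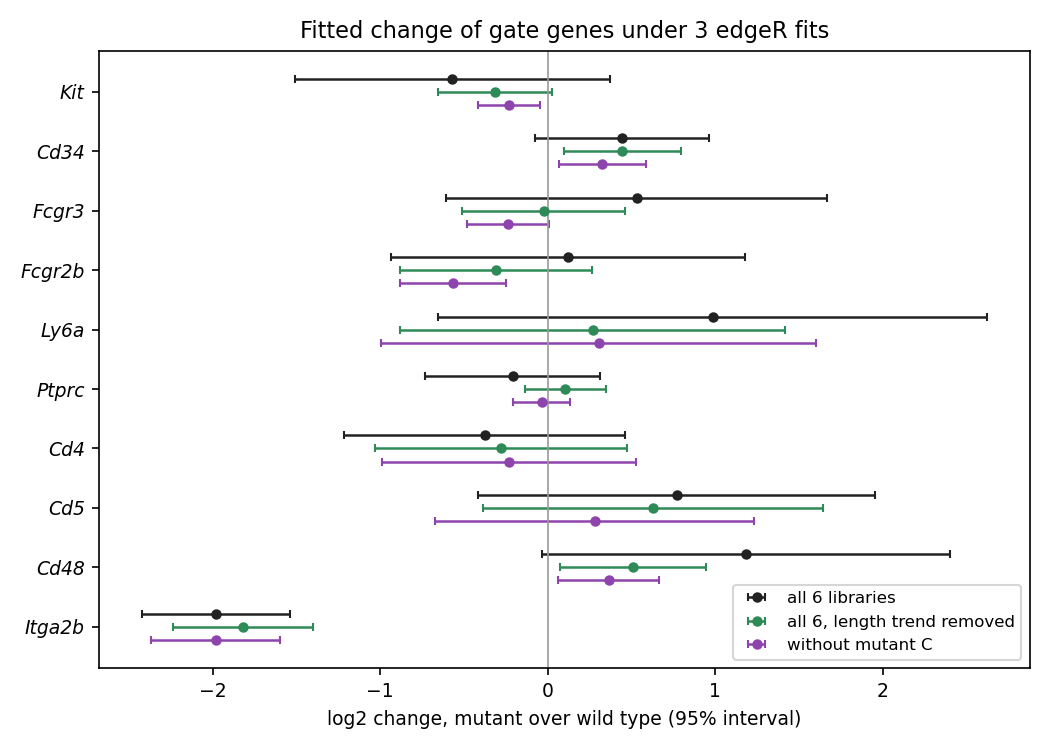
Fitted log2 change (mutant over wild type) with its 95% interval for the 8 tested gate genes and for Cd48 and Itga2b, under 3 edgeR fits: all libraries (black), all libraries with the gene length trend removed (green) and without mutant C (purple). Kit stays below zero and Cd34 above zero in all 3 fits, Fcgr3, Fcgr2b and Ptprc change sign, and Itga2b is near -2 throughout.

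The place of mutant C among the mutants followed gene length for the gate genes as it did for all genes. In log2 CPM, mutant C minus the mean of mutants D and Q was 1.64 for Fcgr3, 1.63 for Ly6a, 1.51 for Fcgr2b and 1.24 for Cd5, the 4 shortest of the tested gate genes. It was 0.31 for Cd34 and -0.52 for Cd4, of middle length, and -0.63 for Ptprc and -1.47 for Kit, the longest. Across all 12222 tested genes Spearman's rho between this difference and gene length was -0.75, a description of these libraries in which genes are not independent replicates. Kit lay below Ptprc although both genes are of similar length.

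**Figure D4:**
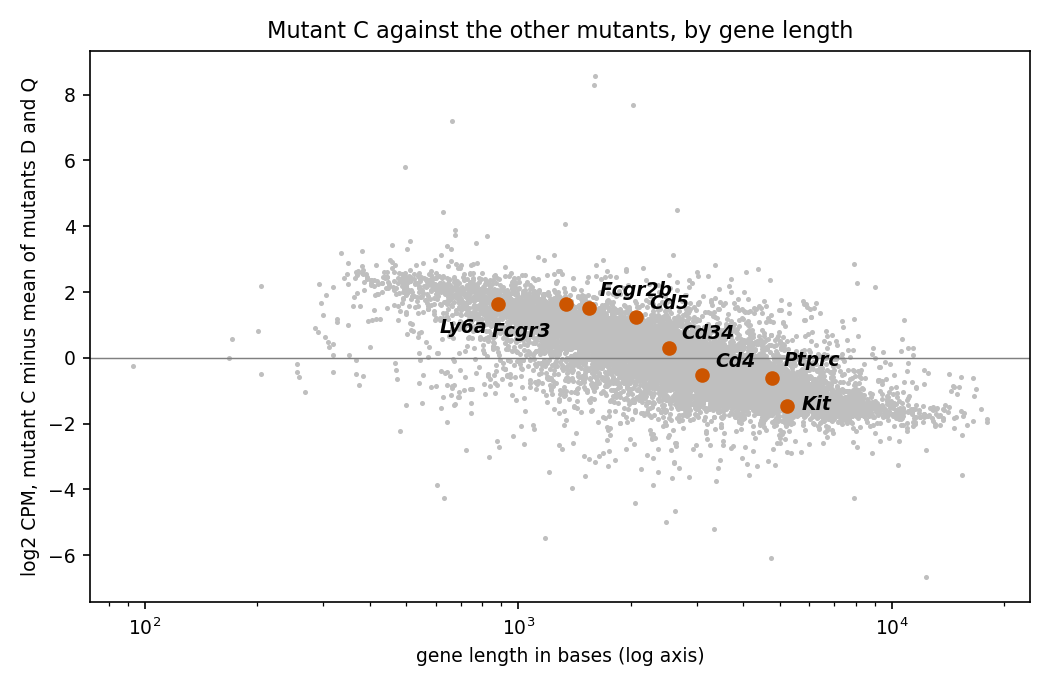
Difference in log2 CPM between mutant C and the mean of mutants D and Q (vertical axis) against gene length in bases (logarithmic horizontal axis) for 12222 tested genes (grey), with the 8 tested gate genes in orange. The cloud slopes down from short to long genes, and the gate genes run from 1.64 for Fcgr3 to -1.47 for Kit.

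Ratios between gate genes within a library were compared in TPM, for 5 pairs. Kit to Cd34 was 0.232, 0.188 and 0.178 in wild-type A, F and L and 0.0389, 0.141 and 0.127 in mutants C, D and Q. Every mutant ratio was below every wild-type ratio, a mean log2 difference of -1.16 (exact permutation test, two-sided, p = 0.1, adjusted p = 0.25 over the 5 ratios). With 3 libraries against 3 the smallest p this test allows is 0.1. Without mutant C the difference was -0.57, with exact p = 0.1, again the smallest possible. Ptprc to Kit was 0.809, 0.815 and 0.812 in wild type, nearly constant, and 1.67, 0.904 and 0.967 in mutants C, D and Q. All mutant ratios were higher, by 0.48 on the log2 scale with all libraries and 0.20 without mutant C (exact permutation p = 0.1 in each case).

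Ratios that involve the Fc receptors overlapped between the groups when mutant C was included. Fcgr3 to Cd34 was 0.0708, 0.0666 and 0.0705 in wild type and 0.117, 0.0464 and 0.0468 in mutants C, D and Q, so that mutants D and Q were below and mutant C above wild type (exact permutation p = 1.0, and without mutant C a log2 difference of -0.57 with exact p = 0.1). Fcgr3 to Kit was 0.305, 0.354 and 0.397 in wild type and 3.01, 0.330 and 0.368 in mutants C, D and Q. Mutants D and Q were inside the wild-type range (exact permutation p = 0.5 with all libraries). Fcgr3 to Fcgr2b was 1.96, 2.62 and 2.93 in wild type, against 3.21, 2.85 and 3.24 in mutants C, D and Q, also overlapping (exact permutation p = 0.2).

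Among the other 7 genes of gate markers, Itga2b fell in the mutant and Cd48 was abundant. Itga2b, the gene for the CD41 chain of the platelet integrin, averaged 31.4 ± 5.66 CPM (wild type) and 7.96 ± 0.152 CPM (mutant; SD, n = 3 each), 3.94-fold lower with a log2 change of -1.98 (SE 0.18, edgeR adjusted p = 0.032). Leaving out mutant C gave -1.98 with an edgeR adjusted p of 0.0035, and removing the length trend gave -1.82 with 0.012. The call was lost when any 1 library other than mutant C was left out, with edgeR adjusted p from 0.157 to 0.240 at log2 changes of -2.09 to -1.83, and on the log2(TPM + 1) scale (limma adjusted p = 0.252). Cd48, an adhesion protein of the SLAM family that the gate left out, was at 169 to 186 TPM in wild type and 201 to 251 TPM in the mutant, above Kit in every library. Its mutant values were all higher in CPM as well, which held for 10.6% of all tested genes, with a log2 change of 1.18 (interval -0.04 to 2.40, edgeR adjusted p = 0.578). Leaving out mutant C lowered it to 0.36 (edgeR adjusted p = 0.401), and removing the length trend to 0.51 (adjusted p = 0.530).

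The Ly6C and CD8 genes were low. Ly6c2, a Ly6C gene, was at 5.22 to 7.57 TPM in wild type and 2.44 to 3.95 TPM in the mutant (edgeR adjusted p = 0.870, and 0.106 without mutant C). Cd8a, Cd8b1 and Ly6c1 had means of 2.51, 0.698 and 2.02 expected counts per library and did not pass the filter of the edgeR fit. DESeq2, run without that filter, gave log2 changes of -0.65, -1.32 and -3.34 (adjusted p = 0.883, 0.900 and 0.636).

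Genes around the c-Kit receptor, from its ligand to its signal transducers, were measured alongside it. Of 25 such genes 24 were tested, and 0 were called by edgeR with all libraries (0.155% of all genes), with 0 at an unadjusted p under 0.05 (4.8% of all genes). Their median log2 change was -0.26 with all libraries and near zero without mutant C, where 0 were called (0.84% of all genes) and 3 had an unadjusted p under 0.05 (10.4% of all genes). With or without mutant C, DESeq2 and limma-voom called 0 as well, the all-gene shares without mutant C being 1.33% and 0.88%. Kitl, the gene for stem cell factor, stayed at or below 0.77 TPM and did not pass the filter of the edgeR fit. The signal transducer Stat5a was at 41.5, 35.3 and 30.2 TPM in wild type and at 5.0, 28.4 and 21.98 TPM in mutants C, D and Q, with a log2 change of -0.57 (edgeR adjusted p = 0.578) and -0.35 without mutant C (unadjusted p = 0.010, adjusted p = 0.272). The adaptor gene Gab1 was at -0.63 (adjusted p = 0.578 by edgeR), or -0.36 once mutant C was left out. The phosphatase gene Ptpn6, whose product dampens c-Kit signalling, was at 0.35 (adjusted p = 0.578 by edgeR), or 0.16 once mutant C was left out.

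Genes of Fc receptor signalling gave 12 tested members of 14, and edgeR with all libraries called 0 (0.155% of all genes), 2 having an unadjusted p under 0.05 (4.8% of all genes). Those were Ms4a2, the beta chain of the IgE receptor, and Fcgr4, another IgG receptor gene. Ms4a2 was at 11.4, 3.80 and 3.44 TPM in wild type and at 0.12, 0.04 and 0.14 TPM in the mutants, with a log2 change of -5.01 (edgeR adjusted p = 0.112). Without mutant C it was called by edgeR (-5.74, adjusted p = 0.016), DESeq2 called it in both settings, and limma-voom called 0 genes of the list. Fcgr4 was at 1.25 to 1.89 TPM in wild type and 2.37 to 2.87 TPM in the mutant, a log2 change of 1.42 (edgeR adjusted p = 0.578), or 0.91 once mutant C was left out. Fcer1g, the signalling chain that CD16 needs to reach the surface, was at 126 to 131 TPM in wild type and 135 to 226 TPM in the mutant, with a log2 change of 1.38 (edgeR adjusted p = 0.578), or 0.29 once mutant C was left out (edgeR adjusted p = 0.266). Its mutant values were all above wild type in CPM, which held for 10.6% of all tested genes. This was opposite to Fcgr3 in mutants D and Q, where mutant Q was close to wild-type A (25.1 against 25.2 CPM).

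Relatives and partners of the remaining gate genes gave 0 calls by edgeR, DESeq2 or limma-voom, with or without mutant C. The all-gene shares were 0.155%, 0.673% and 0.262% with all libraries, and 0.84%, 1.33% and 0.88% without mutant C. By edgeR with all libraries 0 had an unadjusted p under 0.05, where 4.8% of all genes did. Among 13 Ly6 family genes 2 were tested by edgeR with all libraries, and the most abundant was Ly6e at 172 to 598 TPM, with a log2 change of 0.07 (edgeR adjusted p = 0.790). Without mutant C 3 were tested, and 2 (Ly6c2 and Ly6h, both lower) had an unadjusted p under 0.05 by edgeR. The all-gene share there was 10.4%. Podxl, a sialomucin related to CD34, was at 4.24 to 5.80 TPM in wild type and 0.63 to 3.95 TPM in the mutant (log2 change -0.62, edgeR adjusted p = 0.578). Without mutant C its change was -0.41, with unadjusted p = 0.040 and adjusted p = 0.459 by edgeR. All 10 genes that act with or on CD45 were tested, with a median log2 change of 0.05, and without mutant C 0 had an unadjusted p under 0.05 by edgeR. Hnrnpll, a splicing regulator of the CD45 exons in lymphocytes, was at 70.7 to 71.4 CPM in wild type and 74.9 to 86.1 CPM in the mutant. Its log2 change was 0.19 (edgeR adjusted p = 0.583), or 0.14 without mutant C. In TPM it was at 44.4 to 51.2 in wild type and 18.6 to 47.3 in the mutant, lowest in mutant C.

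Marker lists of the other cell types that the gate could hold are given beside the gate genes. Their counts of calls stand beside shares over all genes of 0.155% with all libraries and 0.84% without mutant C by edgeR, and of 4.8% and 10.4% at an unadjusted p under 0.05. The shares called in the same order were 0.673% and 1.33% by DESeq2, and 0.262% and 0.88% by limma-voom. Sums in TPM are on the scale that shifted the median of all tested genes to -0.50 with all libraries. The T cell list summed to 27.9 to 31.1 TPM in wild type and 11.0 to 28.7 TPM in the mutant, with 0 of 7 tested genes called by edgeR and 1 (Tcf7) at an unadjusted p under 0.05, and without mutant C DESeq2 called 1 gene as lower (Cd247). The B cell list of 10 genes summed to 48.2 to 59.8 TPM and 49.3 to 62.4 TPM, nearly all of it Cd79b, while Ms4a1 stayed at or below 0.03 TPM, and 0 of 4 tested genes were called by edgeR, 0 having an unadjusted p under 0.05. The endothelial list, whose cells can carry CD34, summed to 63.7 to 72.4 TPM and 18.8 to 59.8 TPM with 0 of 10 called by edgeR (2, Tek and Pecam1, at an unadjusted p under 0.05). Without mutant C edgeR called 0 of that list, and DESeq2 and limma-voom each called Tek as lower. In CPM the median log2 change was -0.23 for the endothelial list and 0.14 for the T cell list. Without mutant C these medians were 0.01 and -0.04. The stromal list summed to 10.2 to 11.3 TPM and 1.45 to 10.6 TPM. Hepatoblast genes summed to 95.2 to 190 TPM in wild type and to 123, 153 and 625 TPM in mutants C, D and Q, with 0 of 14 called by edgeR, 8 at an unadjusted p under 0.05, 5 called as higher by DESeq2 (Apoa1, Apoa2, Afp, Ahsg and Ttr), and Alb and Afp at 182 and 194 TPM in mutant Q. Without mutant C edgeR called 0 of these 14, with 10 at an unadjusted p under 0.05, and DESeq2 called 2 (Apoa2 and Ttr). Their part in the differences of Kit, Cd34 and Fcgr2b was not tested.

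Lists of other blood lineages held most of the genes that fell among the lists. Beside them stand shares over all genes with all libraries of 0.155% by edgeR, 0.673% by DESeq2 and 0.262% by limma-voom. Without mutant C these shares were 0.84%, 1.33% and 0.88%. The mast cell and basophil list, whose cells carry Fc receptors and, in mast cells, c-Kit, summed to 154 to 197 TPM in wild type and 12.2 to 14.9 TPM in the mutant. By edgeR 1 of 7 tested genes was called as lower (Slc45a3) and 6 without mutant C, while DESeq2 called 6 and limma-voom 4 with all libraries. The carboxypeptidase gene Cpa3 was at 90.0, 92.8 and 98.0 TPM in wild type and 4.98, 4.64 and 4.71 TPM in the mutants. In the megakaryocyte list edgeR called 3 of 8 tested genes as lower (Itga2b, Gp5 and Treml1), and 5 without mutant C. DESeq2 called 5 genes of that list with all libraries and 7 without mutant C. In the erythroid list edgeR called 2 of 12 as lower (Epor and Aqp1), and 6 without mutant C, where DESeq2 called 6 with all libraries and 10 without mutant C. In the stem cell list 1 of 10 fell by edgeR, Slamf1, another SLAM family gene, and 2 without mutant C (Slamf1 and Meis1), where DESeq2 and limma-voom also called Tek. Of the neutrophil and monocyte lists 0 of 8 and 0 of 9 tested genes were called by edgeR, with 0 at an unadjusted p under 0.05, and DESeq2 and limma-voom also called 0. The part of these populations in the levels of Kit and of the Fc receptor genes was not tested.

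For the 6 gate genes with a mean of at least 50 counts, the genes with the most similar profile were found over the 6 libraries by Pearson's r of log2 CPM among 10001 genes. Kit was nearest to Gigyf2 (r = 0.9995), Ptprc to Ccnt1 (r = 0.9997) and Fcgr3 to Smim14 (r = 0.9993). Without mutant C these values were 0.992, 0.978 and 0.989 over 5 libraries. Cd34 was nearest to Acy3 (r = 0.994, and 0.989 without mutant C), Fcgr2b to Gmpr (0.994 and 0.986) and Cd4 to Adgrl4 (0.978 and 0.972). With 6 libraries and so many candidates such values describe this set of libraries, and mutant C sets most of the range for Kit, Ptprc and Fcgr3.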

How the data were processed

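Per the submitters' processing notes, CASAVA 1.8.2, Bowtie 1.1.1 and RSEM 1.2.18 were used with mm10, while annotation release, layout and strand setting are not stated in those notes. The deposited expected counts are RSEM's estimates per gene without normalization, per the file headers, and were rounded here. The deposited TPM and FPKM values are the authors' length-corrected abundances, per the file headers. FPKM served only to recheck the order of levels. Gene lengths come from the deposited length column, which equals the effective length in every row.

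Counts were fitted with edgeR 4.0.16 in R 4.3.3, after filterByExpr (minimum count 10) and TMM scaling, by its quasi-likelihood test, with p adjusted by Benjamini-Hochberg over all 12222 genes and a threshold of 0.05. DESeq2 1.42.0, limma-voom and limma-trend on log2(TPM + 1) (limma 3.58.1), other scalings, no filter, removal of a lowess length trend (span 0.3) and leaving out each library were alternatives. Fits without mutant C by DESeq2, limma-voom or with the length trend removed were added after seeing the data. The code was tested on simulated data. Ratios were compared by exact permutation.

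The gate genes and the 20 gene lists were chosen with earlier results of these data known. Text names all gate genes, other gate markers, Gata2, and per list up to 4 genes with the smallest p, the genes behind counts of 5 or fewer and the most abundant 3 of other cell types. Kitl, Ptpn6, Fcer1g, Ly6e, Podxl, Hnrnpll, Ms4a1, Cd2, Cd3d and Cd3g were named for their role, some outside this rule, after their values were seen. Some genes these rules take are not reported here. Symbols came from a table that named 24448 identifiers. Positions and sequences are from GENCODE M21 on mm10. Replicate letters differ between groups, so no libraries were paired.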

Additional observations from a re-analysis of the deposited data

How the results depend on the processing

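No gate gene passed the threshold in the fit reported or in any of its 16 alternatives. Over the whole table, 19 genes were past the threshold, and the count was 124 by DESeq2, 32 by limma-voom, 36 without the low-count filter and 54 with the length trend removed. Leaving out 1 library gave 0 to 106, the highest without mutant C and 0 without any 1 of the other 5. Without mutant C it was 243 by DESeq2, 111 by limma-voom and 113 with the length trend removed. Of 128 recomputed changes of gate genes, 112 kept their direction and 16 did not. Cd34 was at -0.18 in TPM. Fcgr3 was at -0.025 with the length trend removed, -0.30 in TPM and -0.23 without mutant C, and there at -0.22 by DESeq2, -0.21 by limma-voom and -0.29 with the length trend removed. Fcgr2b was at -0.13 by limma-voom, -0.31 with the length trend removed, -0.59 in TPM and -0.57 without mutant C, and there at -0.56, -0.58 and -0.61 in the same order. Ptprc was at 0.11 with the length trend removed and 0.013 with mutant C also left out. Leaving out 1 library at a time, the change ran from -0.23 (without mutant C) to 0.81 for Fcgr3 and from -0.57 (without mutant C) to 0.41 for Fcgr2b. In the same way the log2 difference ran from -0.57 (without mutant C) to 0.095 (without mutant D) for Fcgr3 to Cd34, which was 0.089 without mutant Q, and from -0.0042 (without mutant C) to 1.59 for Fcgr3 to Kit. The cause was not tested. The order of the gate genes by level was the same in FPKM. No paired analysis was possible because the replicate letters of the groups differ. Depth limits Ly6a, Cd5, Ly6g and Cd3e, which had at most 29.9 expected counts in a library.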
